A study of Mus musculus with 28 samples.

Results

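The restart of transcription was compared between wild-type (WT) mouse embryonic stem cells and cells labelled EloA null, 5 min after release from flavopiridol (FP). The data for this time point list 24984 genes as RPKM, which is reads scaled by library size and by a counted length. For most genes with introns that length came out as the summed intron length, as set out under the processing. The 8985 genes with a mean RPKM above 0.5 in WT or in the cells labelled EloA null were examined. By the same limit 11347 genes would be kept in steady state and 10241 after 10 min of recovery. Of the 8985 genes, 8075 were above the limit in both genotypes, 600 in WT alone and 310 in the cells labelled EloA null alone.

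Newly made RNA was read by Bru-seq: cells are fed 5-bromouridine (BrU), and an antibody pulls down the RNA that carries it. All 4 libraries came from CCE28 cells grown in LIF with PD0325901 and CHIR99021 and freed of their fibroblast feeders before plating, and all were kept in 1 µM FP for 60 min, washed, and given 2 mM BrU for 5 min. The genotypes were wild type and EloA null, with 2 libraries each. In the libraries used for comparison, BrU was given for 10 min, either without FP (steady state) or after the same FP treatment and washout (10-min recovery). A steady-state library titled EloA null, replicate 1, carries a wild type genotype label. It was kept with its title, so it enters the steady-state values given below for EloA null. A treatment label also names CJ7 cells, and the sources used here do not settle which line it refers to. Library sizes, worked out from the steps between low RPKM values, were 9857524 and 12666274 reads for WT and 11915565 and 17272747 reads for EloA null. The study describes its Bru-seq replicates as independent experiments, and p-values measure the spread between these libraries. Both the WT and the EloA null cells were gifts from the same laboratory. The sources used here do not say how many null clones were used or which part of the gene was deleted, so the loss of EloA and other differences between the cell lines cannot be told apart.

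FP blocks P-TEFb, the kinase that lets RNA polymerase II (Pol II) leave the pause near the start of a gene. Polymerases that have already left it run on and finish, so long genes are emptied from the start site onward, and washing the drug out lets a new wave enter. EloA is the large subunit of Elongin, which with EloB and EloC speeds Pol II along DNA in vitro and also serves as part of a ubiquitin ligase. Within 5 min a new polymerase covers only the start of a long gene, so there the labelled RNA at this time comes from its first part and from whatever elongated past the block.

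Eloa itself, on chromosome 4 from 136003370 to 136021649 (GRCm38, minus strand), was not lower in the libraries labelled EloA null. Its RPKM was 2.96 and 2.82 in WT and 5.14 and 6.25 in EloA null. Both null libraries lay above both WT libraries, a 1.97-fold ratio of the means (log2 difference 0.95 ± 0.18, SE, n = 2 against 2; adjusted p = 0.249 by limma over all 8985 genes, 0.0166 among those with at least 20 reads and 0.0169 with the spread of 12 libraries). The ratio was 1.65-fold in steady state and 1.58-fold after 10 min. The RPKM of a gene with introns rests on its intron length, and whether these introns lie in the deleted part is not known from the sources used here. The gene's nascent RNA therefore does not check the label, and the cells are called libraries labelled EloA null throughout. The study has other evidence on the genotype, which was not examined here. It compared EloA protein in the WT and null cells by immunoblot. It also reports that in null cells the EloA CUT&RUN signal at the ribosomal RNA gene Rn45s fell near the IgG control. The other 10 listed genes of the Elongin complex and its partners were not past the limits set out next.

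A gene was counted as higher or lower when the ratio of the mean RPKM was past 1.5-fold and the 2 libraries of one genotype lay wholly above those of the other. In the libraries labelled EloA null 392 of 8985 genes were higher, 4.36% of those tested, and 441 were lower, 4.91%. Many of these rest on little: a mean under 20 reads per library was found for 127 higher and 154 lower genes, and 149 higher and 199 lower genes were above 0.5 RPKM in one genotype alone, where they had to differ to be kept. With each library centred on its median the split was 495 higher and 348 lower. Where the mean reached 50 reads, in 7350 genes, 220 were higher (2.99%) and 245 lower (3.33%), and the genes named below come from these unless stated.

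By limma on log2(RPKM + 0.1) over all 8985 genes 0 genes passed an adjusted p of 0.05 (0%), while 846 had an unadjusted p under 0.05 and the smallest adjusted p was 0.0670. Where the mean reached 20 reads, in 7945 genes, 110 passed (1.38%), 69 higher and 41 lower, and all 110 were also past 1.5-fold without overlap. Of these, 43 higher and 31 lower genes were above 0.5 RPKM in both genotypes. When limma was fitted only to the 8075 genes above that limit in both genotypes, with no minimum of reads, 0 passed, with 651 at an unadjusted p under 0.05 and a smallest adjusted p of 0.215. When the spread was estimated over all 12 Bru-seq libraries 532 of the 8985 genes passed (5.92%), 256 higher and 276 lower. Below, "passed" refers to the fit of genes with at least 20 reads, and its adjusted p is given as such, since no gene passed when the thinly covered ones were included.

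**Figure D1:**
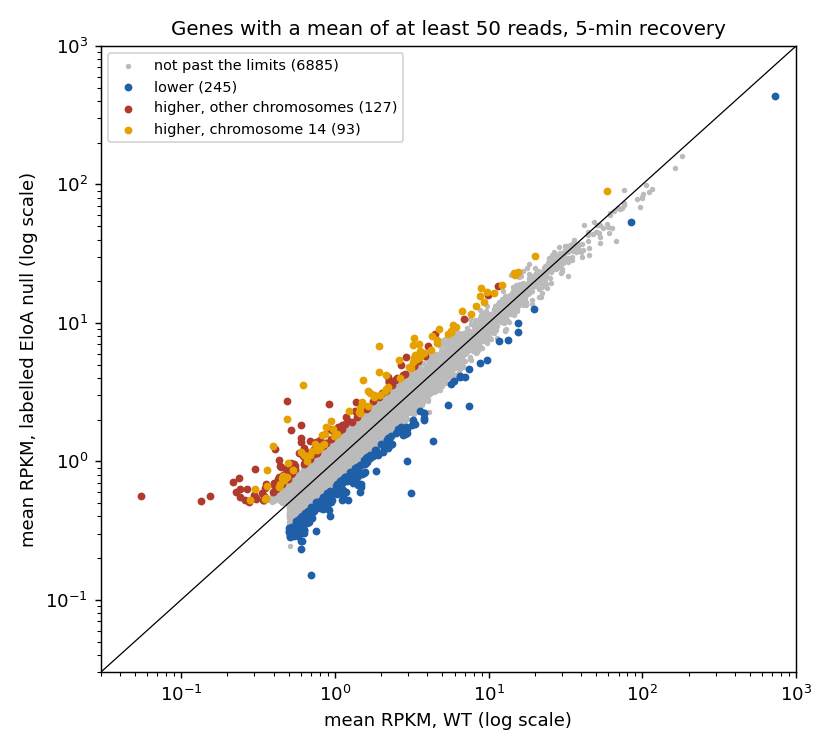
Mean RPKM of the 2 libraries labelled EloA null (y axis) against that of the 2 WT libraries (x axis), both on log scales, for the 7350 genes whose mean reached 50 reads at 5 min; each point is a gene and the line marks equal levels. The 220 higher genes, 93 of them on chromosome 14, lie above the line and the 245 lower genes below it.

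Sfi1, which encodes a centrin-binding protein of the centrosome, was among the most different genes. It had 0.510 and 0.461 RPKM in WT and 2.63 and 2.83 in the libraries labelled EloA null, a 5.62-fold ratio (log2 difference 2.27 ± 0.15). The libraries of each genotype nearly coincided. Sfi1 spans 68.8 kb of chromosome 11 with 33 exons, and partial copies of its sequence occur in the mouse genome, so reads may have been lost or misplaced. The long noncoding gene BC064078 on chromosome 6 had the largest ratio among genes with 50 reads or more, 10.3-fold, from 0.0476 and 0.0617 RPKM in WT to 0.525 and 0.602. In reads these were 6 and 10 in WT against 80 and 133, so the size of the ratio is imprecise. Sfi1 and BC064078 were above 0.5 RPKM in the libraries labelled EloA null alone, where a gene had to differ to be kept, so no p is given for them.

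Several other higher genes are known from sensory and other specialised tissues. Vmn2r78 and Vmn2r79, neighbouring genes of vomeronasal pheromone receptors on chromosome 7, had ratios of 3.84 and 3.24. Vmn2r79 went from 0.385 and 0.657 RPKM in WT to 1.56 and 1.81, and the genotypes did not overlap. The receptors are close relatives within a large family, so their reads are uncertain. Gnat3, the G-protein subunit of taste cells known as gustducin, had 0.232 and 0.371 RPKM in WT and 0.848 and 0.902 in the libraries labelled EloA null. Slco1c1, a thyroid hormone transporter, had 0.924 and 0.897 against 2.84 and 2.32, with the WT libraries much closer together than the null ones. The testis-expressed phosphatase gene Tpte stood at a 3.69-fold ratio, the kinase gene Stk33 at 3.28-fold and Zbbx, which encodes a B-box zinc finger protein, at 3.21-fold.

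Ctsf and Mfsd12 rested on few reads. Ctsf, which encodes the protease cathepsin F, had 0.503 and 0.700 RPKM in WT and 1.44 and 2.22 in the libraries labelled EloA null. Mfsd12, a transporter of lysosomes and melanosomes, had 0.530 and 0.281 against 1.28 and 1.17. The mean of Ctsf was 66.5 reads, and in both genes the genotypes did not overlap. Rarg, the retinoic acid receptor gamma gene, stood just outside the first 15 at 2.64-fold and is named after its values were seen. It had 0.248 and 0.205 RPKM in WT and 0.602 and 0.595 in the libraries labelled EloA null, above 0.5 RPKM in the latter alone. Of the 15 genes with the largest ratios 10 were above 0.5 RPKM in the libraries labelled EloA null alone, and their differences are given as descriptions. The other 5, Gm9732, 1700001F09Rik, Vmn2r79, Ctsf and Slco1c1, passed the fit of genes with at least 20 reads, with an adjusted p of at most 0.00116 by limma.

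Pramel6, a PRAME-family gene known for promoting the ground state of pluripotency, led the lower side. It had 3.75 and 2.51 RPKM in WT and 0.471 and 0.714 in the libraries labelled EloA null, 5.29-fold lower (log2 difference −2.22 ± 0.27; adjusted p = 1.02e-05 among genes with at least 20 reads and 0.117 among all, limma). Both WT libraries lay far above both null libraries, on a mean of 58.0 reads. Pramef8, another member of this family on chromosome 4, had 1.80 and 1.90 RPKM against 0.744 and 0.967. PRAME genes come in near-identical copies, so both values are uncertain.

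Aim2, a sensor of DNA in the cytosol that starts an inflammasome, had 0.733 and 0.672 RPKM in WT and 0.166 and 0.138 in the libraries labelled EloA null, 4.62-fold lower. Gsto1, which encodes a glutathione S-transferase of the omega class, was 2.99-fold lower, with 7.76 and 7.18 RPKM against 2.27 and 2.72. It is the best covered of these genes apart from Zfp992, at a mean of 522 reads, and its libraries agreed closely within each genotype. Zfp992, a zinc finger gene of the cluster on chromosome 4, had 4.15 and 4.54 RPKM against 1.51 and 1.32.

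Atf3, Errfi1, Dusp14 and Hspb8 were also among the 15 lowest. Atf3, a transcription factor induced by stress, had 1.66 and 1.27 RPKM in WT and 0.667 and 0.544 in the libraries labelled EloA null, 2.42-fold lower. Errfi1, a feedback inhibitor of the EGF receptor, had 0.730 and 0.767 against 0.316 and 0.310. For Dusp14, a dual-specificity phosphatase of MAP kinases, the levels were 1.59 and 1.38 against 0.618 and 0.687. In each of these genes the genotypes were separated by more than the distance between replicates. Hspb8, a small heat shock protein gene, was 2.15-fold lower with WT values of 1.89 and 1.08 that spread widely. The kelch gene Klhl35, the semaphorin gene Sema4f, and Ccdc172, Gm525, C130074G19Rik and 1190002N15Rik made up the rest, at 2.27-fold to 2.93-fold. Of the 15 lower genes 6 (Aim2, Gm525, Errfi1, Ccdc172, 1190002N15Rik and Sema4f) were above 0.5 RPKM in WT alone and are descriptions. The other 9 passed the fit of genes with at least 20 reads, with an adjusted p of at most 0.0396 by limma.

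**Figure D2:**
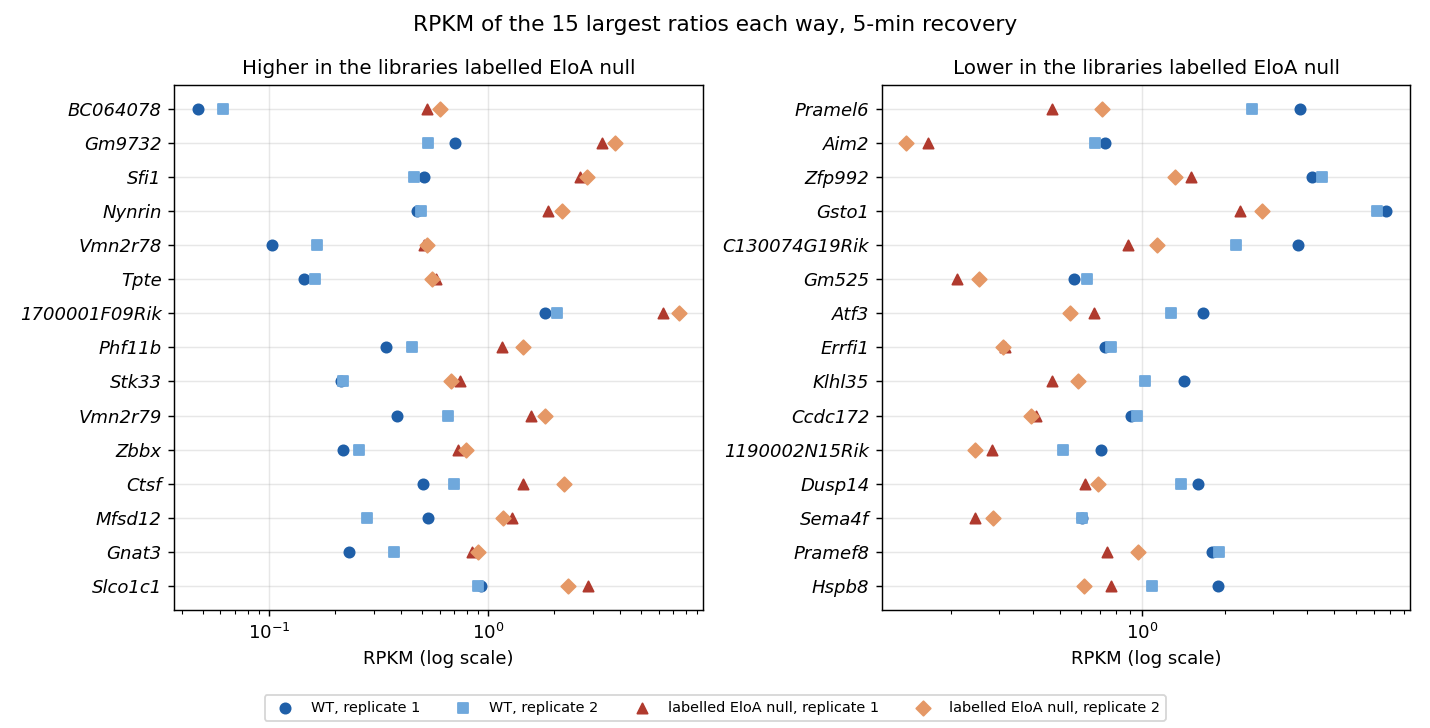
RPKM (x axis, log scale) in each of the 4 libraries for the 15 genes with the largest ratio of mean RPKM in each direction where the mean reached 50 reads; each symbol is 1 library. In every row the 2 libraries labelled EloA null lie on the same side of both WT libraries, from 10.3-fold higher in BC064078 to 5.29-fold lower in Pramel6.

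The same genes were looked up in the steady-state and 10-min libraries, which were not used to choose them. The 15 highest were higher in both null libraries than in both WT libraries at both times, by 1.83-fold to 8.13-fold in steady state and 2.25-fold to 10.6-fold after 10 min. Of the 15 lowest, 14 were lower without overlap in steady state and 14 after 10 min. Klhl35 was the exception, with a ratio of 1.06 in steady state and 1.07 after 10 min. C130074G19Rik, 2.93-fold lower at 5 min, had a ratio of 0.808 in steady state and 0.565 after 10 min.

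All genes past the limits with 50 reads or more were followed in the same way. In steady state 212 of the 220 higher genes had both null libraries above both WT libraries, against 27.7% of the 7350 genes, and after 10 min 219 did, against 31.2%. Of the 245 lower genes 148 had both null libraries below both WT libraries in steady state, against 26% of the 7350, and 180 after 10 min, against 26.3%. The median log2 difference of the higher genes was 0.66 at 5 min, 0.63 after 10 min and 0.54 in steady state. For the lower genes it was −0.63 at 5 min, −0.36 after 10 min and −0.18 in steady state. Since the 5-min values chose the genes, the 5-min medians are extremes by choice and were not tested against the others. Without chromosome 14, taken up below, the 127 remaining higher genes had medians of 0.66, 0.58 and 0.49.

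**Figure D3:**
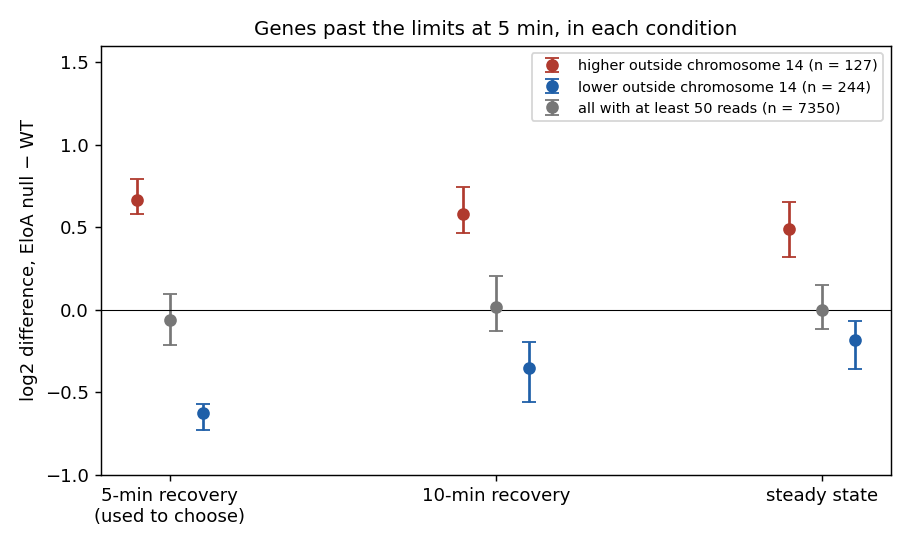
Median log2 difference between the libraries labelled EloA null and WT (y axis, points, with bars from the lower to the upper quartile) at 5 min, at 10 min and in steady state (x axis) for the genes past the limits at 5 min outside chromosome 14 and for all 7350 genes with at least 50 reads. The 127 higher genes stay near 0.5 in steady state, while the 244 lower genes go from −0.63 at 5 min to −0.18.

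Whether a gene differed more between genotypes in recovery than in steady state was asked by the interaction of genotype and condition in limma, over 8 libraries. It passed an adjusted p of 0.05 in 8 of the 8985 genes (0.089%), all of them microRNA genes with at most 3 reads in any 5-min library, and 403 genes had an unadjusted p under 0.05. Among genes with at least 20 reads 0 passed, with 325 at an unadjusted p under 0.05. The values below are therefore descriptions of the genes with the smallest interaction p among those with at least 50 reads.

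Cdkn1a, which encodes the cyclin-dependent kinase inhibitor p21, had 2.90 and 2.95 RPKM at 5 min in WT and 1.70 and 1.74 in the libraries labelled EloA null. In steady state its means were 3.58 and 3.57, a ratio of 0.997, and after 10 min 6.53 and 5.39. The difference between the genotypes was thus seen at 5 min, was smaller at 10 min and was absent from the steady-state means (interaction −0.73 ± 0.16 on the log2 scale, adjusted p = 0.57 by limma). Ahnak, a very large scaffold protein gene of 87.6 kb, had 10.3 and 9.33 RPKM at 5 min in WT against 5.63 and 5.15, and steady-state means of 2.40 and 2.26. Its 5-min RPKM exceeded its steady-state RPKM in both genotypes. Traf6, a ubiquitin ligase of innate immune signalling, had 1.41 and 1.40 against 0.661 and 0.680, and Usf3, a helix-loop-helix factor gene, 1.52 and 1.49 against 0.773 and 0.844. These genes had steady-state ratios of 0.794 and 0.869. Kank2, a regulator of the actin skeleton, had 0.550 and 0.472 RPKM against 0.283 and 0.288 at 5 min, while in steady state the mean of the libraries labelled EloA null was 1.19 times that of WT.

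In the other direction, Sfi1 had an interaction of 0.82 ± 0.16 on the log2 scale. Gpr34, a lysophosphatidylserine receptor gene inside Cask and on the opposite strand, had 1.90 and 2.27 RPKM in WT and 3.07 and 3.17 at 5 min, with a steady-state ratio of 0.966. Aagab had ratios of 1.47 and 0.878 at 5 min and in steady state. For Top1, the DNA topoisomerase I gene, and the noncoding gene 1110019D14Rik the difference lay in steady state, at ratios of 0.720 and 0.506, and the 5-min ratios were 1.06 and 0.816. The adjusted p of these 5 interactions was at least 0.498 by limma.

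Chromosome 14 held 118 of the 392 higher genes (30.1%) and 3 of the 441 lower genes, while 3.87% of the tested genes lie on it. With at least 50 reads it held 93 of 220 higher genes and 1 of 245 lower genes. On it 33.9% of the 348 tested genes were higher; on the 19 other chromosomes, Y left out, the share was 1.10% to 4.59%. Its median log2 difference was 0.46, a median ratio of 1.40, against medians of −0.14 to −0.016 on those chromosomes. The median deviation of its genes from their mean over the 4 libraries was −0.17 and −0.28 in WT and 0.20 and 0.24 in the libraries labelled EloA null (difference of the groups 0.44 ± 0.061, pooled SD, n = 2 against 2). The exact permutation p was 0.333, the smallest that 2 against 2 libraries allow. The difference was as large in steady state, at a median of 0.47, and after 10 min, at 0.49.

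It ran along the whole chromosome. In 10 consecutive groups of 34 or 35 tested genes from 7817957 to 122983283 the median log2 difference was 0.43 to 0.56 in 9 and 0.22 in the last, near the end of the chromosome. Several of the largest single differences lie here. Gm9732, a noncoding gene from 43275036 to 43306011, had 0.705 and 0.530 RPKM in WT and 3.33 and 3.80 in the libraries labelled EloA null. Close by, from 43342384 to 43347811, 1700001F09Rik had 1.83 and 2.06 against 6.29 and 7.43. Nynrin, whose product resembles a retroviral integrase, was 4.18-fold higher with 0.476 and 0.496 against 1.88 and 2.18, and the PHD finger gene Phf11b was 3.29-fold higher. Each of these stood well above the chromosome's median ratio.

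Long and well covered genes of chromosome 14, named after their values were seen, had smaller ratios than the genes above. All still lay above the chromosome's median ratio of 1.40, so they do not stand for its genes in general. Ptprg, a receptor tyrosine phosphatase gene of 688 kb, had 6.62 and 6.78 RPKM in WT and 12.6 and 11.7 in the libraries labelled EloA null. For Dock5, an activator of Rac, the ratio was 1.78, for the adenosine kinase gene Adk 1.87, and for the glutamate dehydrogenase gene Glud1 2.00. Grid1, a glutamate receptor gene of 761 kb, was further out at 2.53-fold, with 1.51 and 1.55 against 4.01 and 3.74. All 5 passed the fit of genes with at least 20 reads, where 29 of the 69 higher genes and 0 of the 41 lower genes lie on chromosome 14. Whether the copy number of this chromosome differs between the lines was not tested.

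**Figure D4:**
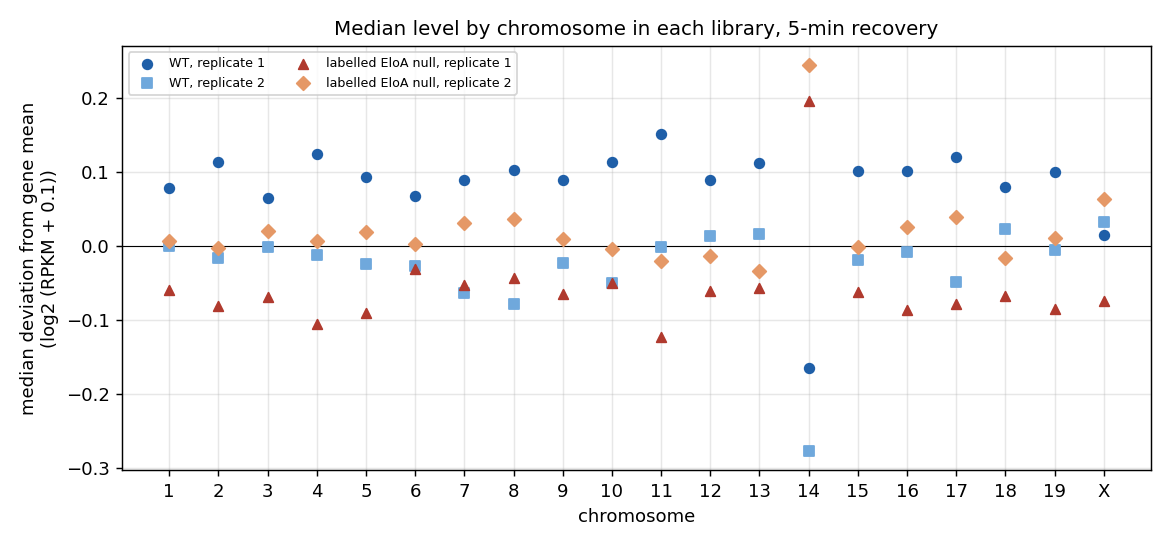
Median deviation of the genes of each chromosome (x axis) from their own mean over the 4 libraries, in log2(RPKM + 0.1) (y axis); each symbol is 1 library. Chromosome 14 stands apart, at −0.17 and −0.28 in WT and 0.20 and 0.24 in the libraries labelled EloA null, and on the other chromosomes the genotypes are separated by far less.

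Gene span was examined because 5 min of elongation does not reach the end of a long gene. The median log2 difference was 0.034 in genes of 2 to 5 kb and 0.0052 in genes of 5 to 10 kb, and it was −0.14 in those of 30 to 60 kb and of 60 to 100 kb. Genes over 15 kb lay 0.039 and 0.033 above genes under 10 kb in WT, and 0.016 above and 0.13 below them in the libraries labelled EloA null, as deviations on the log2 scale. The group difference of −0.093 ± 0.073 (pooled SD, n = 2 against 2; exact permutation p = 0.333, the smallest this design allows) came mostly from the second of these null libraries: without it the difference was −0.028, and without the first −0.16. Measured against each genotype's own steady state it was 0.078, of the opposite sign.

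Genes over 100 kb differed in their counts from the classes of 10 to 100 kb, in each of which more genes were lower than higher. Of 1096 such genes 66 were higher (6.02%) and 20 lower (1.82%), whereas of the 1393 genes of 30 to 60 kb 27 were higher and 70 lower. Outside chromosome 14, 42 of 1044 genes over 100 kb were higher and 20 lower, against 229 and 415 of the 7560 shorter ones. All these counts by span include genes above 0.5 RPKM in 1 genotype alone, which had to differ to be kept. They were not repeated without such genes, so the part of the filter in this contrast is not known. The 42 had a median WT RPKM of 0.593 at 5 min, against 1.68 over all 1044, but their choice used this value. In steady state, which was not used to choose them, the WT medians were 0.336 and 1.38. In 41 of the 42 both null libraries also lay above both WT libraries in steady state, against 27.7% of the 7350 genes with 50 reads or more. Among all 127 higher genes outside chromosome 14 with 50 reads or more, 119 did so. Their WT median in steady state was 0.875, against 2.43 over the 7350 genes, so neither trait is particular to long genes.

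Examples, named after their values were seen, include Pde4d, a cAMP phosphodiesterase gene of 1302 kb, with 0.419 and 0.449 RPKM in WT and 1.06 and 0.987 in the libraries labelled EloA null. Zbtb20, a transcriptional repressor gene, had 0.540 and 0.684 against 1.14 and 1.21. The ankyrin gene Ank2, Bnc2, which encodes the zinc finger protein basonuclin 2, and Plxdc2 had ratios of 1.82, 1.98 and 1.86. Pde4d was above 0.5 RPKM in the libraries labelled EloA null alone. The other 4 passed the fit of genes with at least 20 reads, with an adjusted p of 0.0328 to 0.0460 by limma. Among lower genes of more than 30 kb, Ddah1, which breaks down the nitric oxide synthase inhibitor ADMA, had 3.67 and 3.98 RPKM against 2.06 and 1.95, and the choline kinase gene Chka 3.53 and 4.05 against 1.73 and 2.39.

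**Figure D5:**
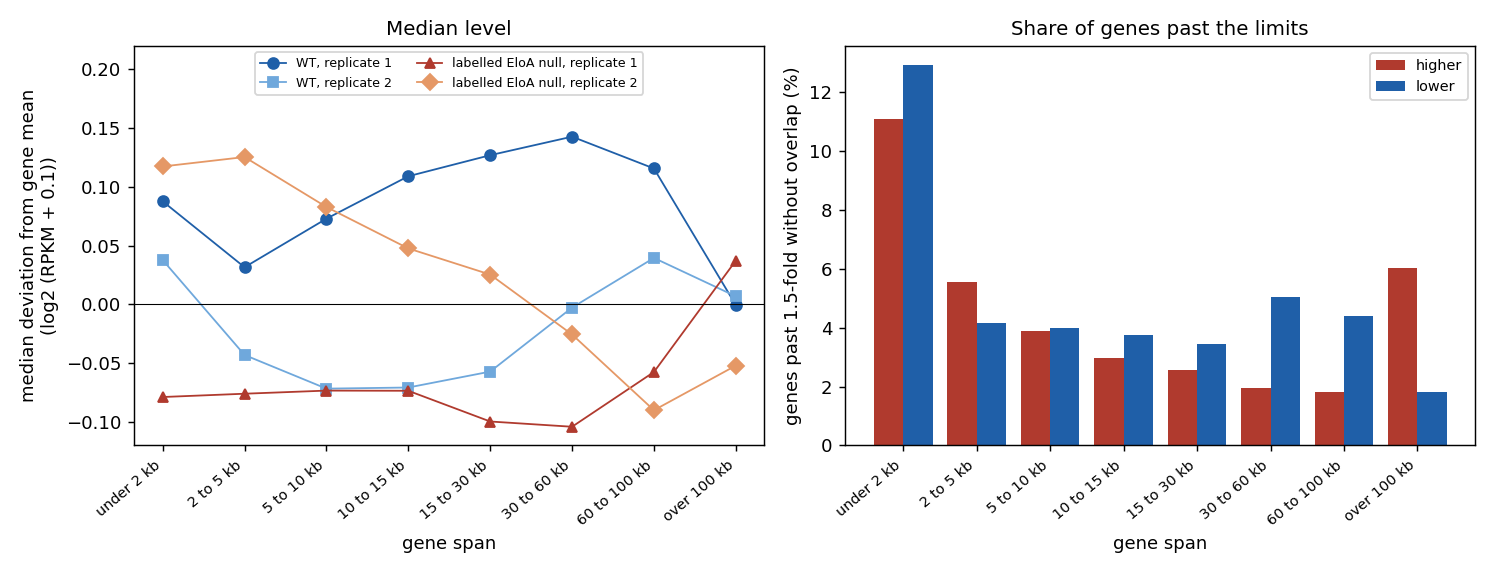
Left, median deviation of the genes of each span class (x axis) from their mean over the 4 libraries, in log2(RPKM + 0.1) (y axis), with 1 line per library; right, share of the tested genes of each class that were higher or lower past 1.5-fold without overlap. The libraries of a genotype diverge by as much as the genotypes do, and genes over 100 kb are the class where higher genes (6.02%) most outnumber lower ones (1.82%).

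The promoters, taken from RefSeq (GRCm38.p6) as 250 bases before to 50 bases after the start site, were searched for known motifs. Of the 172 higher genes with at least 50 reads and a promoter, 88 (51.2%) held GGGCGG, the core of the GC box, on either strand, and of the 187 lower genes 135 (72.2%) did. The share was 66.0% of the 5903 genes with at least 50 reads and 35.7% of all 32851 promoters. Outside chromosome 14 it was 45 of 99 higher genes (45.5%). The median GC content of the promoters was 59.2% for higher genes, 62.3% for lower genes and 61.3% for all. TATAAA was found in 8.14% of the higher and 6.42% of the lower promoters, against 6.56% of the 5903. CACGTG, the E-box, stood at 9.88% and 8.56% against 11.3%, TGACGTCA, the cAMP response element, at 0.581% and 2.67% against 3.91%, and the heat shock motif GAANNTTC at 8.14% and 6.42% against 5.90%. These motifs were searched on both strands, GGGCGG copies may overlap each other, and the shares are descriptions without a test.

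Promoters of 2 higher genes without the motifs and 2 lower genes with several copies are printed as examples of both kinds, with motif letters in capitals. They were picked for contrast and do not stand for their groups. The higher genes Nynrin, Ctsf and Mfsd12 hold GGGCGG, and the lower genes Pramel6, Errfi1, Klhl35 and Sema4f hold none of the motifs. Zbbx (chr3:75143723-75144022, minus strand) and Phf11b (chr14:59341281-59341580, minus strand), higher at 5 min, hold none of the 5 motifs. Atf3 (chr1:191183284-191183583, minus strand) and Usf3 (chr16:44173147-44173446, plus strand), lower at 5 min, hold 5 copies of GGGCGG each, read as CCGCCC where the copy is on the other strand.
Zbbx: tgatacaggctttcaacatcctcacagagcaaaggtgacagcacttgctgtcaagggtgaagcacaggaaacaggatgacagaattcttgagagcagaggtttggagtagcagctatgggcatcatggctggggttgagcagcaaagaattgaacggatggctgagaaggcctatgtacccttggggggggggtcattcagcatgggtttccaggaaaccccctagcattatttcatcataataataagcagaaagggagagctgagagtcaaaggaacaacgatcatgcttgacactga
Phf11b: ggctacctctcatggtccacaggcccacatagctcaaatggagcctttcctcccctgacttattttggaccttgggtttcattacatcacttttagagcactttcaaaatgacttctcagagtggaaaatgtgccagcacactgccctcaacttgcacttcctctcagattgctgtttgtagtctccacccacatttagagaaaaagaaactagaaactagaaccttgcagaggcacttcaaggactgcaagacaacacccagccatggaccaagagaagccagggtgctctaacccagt
Atf3: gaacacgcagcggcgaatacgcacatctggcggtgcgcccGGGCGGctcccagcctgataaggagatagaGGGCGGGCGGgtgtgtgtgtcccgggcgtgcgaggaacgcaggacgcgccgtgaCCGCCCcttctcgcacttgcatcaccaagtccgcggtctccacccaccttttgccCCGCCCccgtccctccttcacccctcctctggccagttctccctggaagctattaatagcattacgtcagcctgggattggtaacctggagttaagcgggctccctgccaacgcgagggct
Usf3: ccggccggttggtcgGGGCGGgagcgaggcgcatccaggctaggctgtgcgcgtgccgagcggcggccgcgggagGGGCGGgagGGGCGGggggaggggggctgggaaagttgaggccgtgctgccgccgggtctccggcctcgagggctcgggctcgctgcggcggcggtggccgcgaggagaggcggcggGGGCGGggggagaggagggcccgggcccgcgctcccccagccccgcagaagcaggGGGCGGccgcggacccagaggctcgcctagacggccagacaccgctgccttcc

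Other features were compared with the 7350 genes from which the members came, without a test. Protein-coding genes made up 91.8% of the higher genes, 94.7% of the lower and 94.9% of all. The median GC content of the gene span was 44.2%, 44.9% and 44.4%, and the median number of exons 8, 8 and 10. Another gene overlapped 18.8% of the lower genes, 28.2% of the higher genes and 27.4% of all. The median WT RPKM at 5 min was 0.858 in the higher and 1.04 in the lower genes, against 1.83 in all. The filter and the ratio used these values, so they are partly set by the choice of genes. In steady state, which was not used to choose them, the WT medians were 1.16, 2.08 and 2.43.

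The replication-dependent histone genes had the most lower members of the protein-coding lists. These intronless genes, clustered on a few chromosomes, supply histones in S phase. Of 66 listed genes 48 were tested, of which 13 were lower (27.1%) and 2 higher (4.17%). The shares were 4.91% and 4.36% of all genes tested, and 12.9% and 11.1% of those under 2 kb. The median log2 difference was −0.34 against −0.06 over all genes. The median deviation of the 48 genes from their mean was 0.28 and 0.21 for WT, and −0.30 and −0.053 for EloA null. In steady state the median was 0.10 and after 10 min −0.05. Its median lay between −0.47 and −0.29 under the GC correction, with 20 reads or more and without each library in turn. Only 9 of the 48 genes had a mean of at least 50 reads, 0 passed limma in either fit of the 5-min libraries, and near-identical copies make single histone genes uncertain.

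The best covered of the lower histone genes encode linker histones. Hist1h1a had 9.67 and 7.95 RPKM in WT and 5.41 and 4.82 in the libraries labelled EloA null, and Hist1h1b had 8.43 and 5.57 against 4.02 and 4.08. Neither pair of groups overlapped, and the adjusted p was 0.0734 and 0.111 among genes with at least 20 reads by limma. In steady state the log2 differences were 0.0071 and −0.26. Their promoters (chr13:23763418-23763717, plus strand, and chr13:21780576-21780875, minus strand) are shown because both carry GGGCGG 75 bases before the start site and TATAAA 33 and 28 bases before it.
Hist1h1a: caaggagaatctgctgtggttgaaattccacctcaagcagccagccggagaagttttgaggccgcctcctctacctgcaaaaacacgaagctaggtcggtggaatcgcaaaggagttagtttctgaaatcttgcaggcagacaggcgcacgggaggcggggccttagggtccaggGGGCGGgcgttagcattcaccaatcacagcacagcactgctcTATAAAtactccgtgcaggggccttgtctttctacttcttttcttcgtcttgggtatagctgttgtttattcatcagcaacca
Hist1h1b: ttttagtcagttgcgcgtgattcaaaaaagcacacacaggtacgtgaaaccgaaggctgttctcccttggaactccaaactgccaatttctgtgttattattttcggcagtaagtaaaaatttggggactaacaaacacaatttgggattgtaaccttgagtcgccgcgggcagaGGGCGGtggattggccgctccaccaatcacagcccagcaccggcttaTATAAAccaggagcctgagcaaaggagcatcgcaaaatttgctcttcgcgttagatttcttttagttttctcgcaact
Replication-independent histone genes gave 0 higher and 0 lower of 9 tested, with H3f3a at 13.9 and 11.3 RPKM in WT and 12.2 and 13.3 in the libraries labelled EloA null.

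Zinc finger genes named Zfp were called in both directions, 10 higher (4.42%) and 9 lower (3.98%) of 226, near the background. A cluster of them on chromosome 4 held both: Zfp992 and Zfp981, from 146449030 to 146539395, were lower, and Zfp982 and Zfp985, further along from 147443114 to 147585201, were higher. Zfp981, Zfp982 and Zfp985 were named after their values were seen. Zfp985 had 10.1 and 9.87 RPKM in WT and 15.2 and 16.4 in the libraries labelled EloA null. Zfp982 had 3.03 and 3.95 against 4.36 and 6.25. These genes are close copies of each other, so reads may have been placed with the wrong member. Elsewhere, Zfp423, a gene of 298 kb on chromosome 8, was 1.88-fold higher and Zfp970 was 1.62-fold higher. Zfp560, Zfp664 and Zfp418 had ratios of 0.506, 0.589 and 0.606, and were above 0.5 RPKM in WT alone.

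Immediate early genes restart quickly after a block, and 22 of 38 listed were tested. Besides Atf3, Ctgf, Ier5 and Socs3 were lower and Gadd45b was higher, these 4 on means under 50 reads. In all 4.55% were higher and 18.2% lower, against 4.36% and 4.91% of all genes tested. Socs3, a feedback inhibitor of LIF signalling named after its values were seen, had 0.909 and 2.26 RPKM in WT and 0.150 and 0.623 in the libraries labelled EloA null, on very few reads. Among 11 tested genes of FGF-ERK feedback, Spry4 had 2.49 and 2.91 RPKM against 4.79 and 5.06, Spry2, on chromosome 14, 10.6 and 11.1 against 15.1 and 17.7, and Spred1 0.604 and 0.554 against 0.367 and 0.391. All 3 encode inhibitors of the ERK pathway, with differences in both directions, and Spry4 passed the fit of genes with at least 20 reads (adjusted p = 0.0332, limma). Ier5, Socs3 and Spred1 were above 0.5 RPKM in WT alone. Of the BMP and Nodal feedback genes, the pseudoreceptor gene Bambi was 1.53-fold higher and Ski, a SMAD co-repressor gene, had a ratio of 0.618; Id1 was lower on a mean of 2.75 reads.

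Genes of the transcription machinery were called at shares near or under the 4.36% and 4.91% of all genes tested, which says nothing particular about them. Of 35 tested elongation factor and P-TEFb genes 1 was lower: Cdk12, a kinase of the Pol II tail, with 1.30 and 1.24 RPKM in WT and 0.807 and 0.833 in the libraries labelled EloA null (adjusted p = 0.179 among genes with at least 20 reads, limma). None of the 15 Pol II subunit genes and none of the 17 tested genes of the MYC network was past the limits. Eif4a1, a translation initiation factor gene, had a ratio of 0.688 and Npm1 0.827. Of 31 splicing factor genes, Hnrnpc on chromosome 14 was 1.70-fold higher. Ribosomal protein genes, with 83 tested, gave 0 in either direction, and Rps20 had 34.0 and 46.5 RPKM in WT and 30.3 and 44.1 in the libraries labelled EloA null, so the genotypes overlapped.

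Noncoding RNAs of the nucleus included the most abundant lower gene. Malat1, a nuclear-speckle RNA, had 764 and 688 RPKM in WT and 496 and 376 in the libraries labelled EloA null, a ratio of 0.600 (log2 difference −0.75 ± 0.18; adjusted p = 0.383 over all genes and 0.493 among those with at least 20 reads, limma). Of 8 tested Pol I and Pol III transcripts and other small nuclear RNAs 3 were lower: Terc, Rnu73b and Rnu11, with a mean of 28.7 reads for Terc and 0.750 for Rnu11. The lower share was 37.5%, against 4.91% of all genes tested and 12.9% of those under 2 kb, and Rnu11 was above 0.5 RPKM in WT alone. The list mixes classes of RNA, so this share does not describe Pol I or Pol III transcription. The 45S ribosomal RNA precursor Rn45s had 1855 and 1610 RPKM in WT and 1520 and 1427 in the libraries labelled EloA null, with no overlap but a ratio of 0.851; its length and reads are not known here. Among snoRNA genes 8 of 109 were higher (7.34%) and 7 lower (6.42%), against 4.36% and 4.91% of all genes tested and 11.1% and 12.9% of those under 2 kb. Snord19, on chromosome 14, had 47.0 and 71.6 RPKM against 83.9 and 94.3.

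MicroRNA genes gave 72 higher (13.2%) and 79 lower (14.4%) of 547 tested, but on means of at most 18.2 reads. The shares were 4.36% and 4.91% of all genes tested, and 11.1% and 12.9% of those under 2 kb. The short counted length of microRNA genes puts a gene with 1 read above 0.5 RPKM. Only 9 of them had a mean of at least 50 reads, 0 of which were past the limits. Mir295, of the cluster that stem cells express, had 92.6 and 105 RPKM in WT and 77.8 and 81.4 in the libraries labelled EloA null.

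Of 14 tested glycolysis genes 1 was higher and 2 were lower (7.14% and 14.3%, against 4.36% and 4.91% of all genes). Ldhb, a lactate dehydrogenase gene, had 0.393 and 0.482 RPKM in WT and 0.786 and 1.06 in the libraries labelled EloA null, above 0.5 RPKM in the latter alone. The lactate carrier gene Slc16a1, at 3.64 and 2.27 against 1.75 and 1.46, and the pyruvate kinase gene Pkm, at 6.73 and 5.11 against 4.15 and 3.40, were lower. Of 23 cyclin and cell cycle kinase genes Cdk6 was lower, with 3.18 and 3.45 against 1.99 and 1.73 (adjusted p = 0.0400 among genes with at least 20 reads, limma), and it had nearly the same difference in steady state. Of 27 heat shock and chaperone genes, the heat shock factor gene Hsf2 was lower, with 2.44 and 2.00 against 1.18 and 1.31. Mitochondrial ribosomal protein genes gave 2 higher and 2 lower of 74; both higher ones, Mrpl52 and Mrps16, lie on chromosome 14, and Mrpl27 had a ratio of 0.551. Proteasome and oxidative phosphorylation lists held Psmg2, an assembly chaperone, and Ndufa12 as lower genes with at least 50 reads, at ratios of 0.625 and 0.664, and the p53 list held Cdkn1a. On fewer reads Atp5k, Ndufb11 and the p53 target Ddit4 were higher, and the ATF4 stress list gave 0 of 14. Opposite-strand noncoding genes gave Otx2os1, on chromosome 14, at a ratio of 1.90 and Far1os at 0.649, each of which could share reads with its partner. Ndufa12 and Far1os were above 0.5 RPKM in WT alone, and Ddit4 and Otx2os1 in the libraries labelled EloA null alone. RIKEN-named genes gave 22 higher and 22 lower of 380 (5.79% each way, near the 4.36% and 4.91% of all genes), among them 4930452B06Rik at 2.16-fold and 1700123O20Rik at 2.00-fold, both on chromosome 14, and 4930519F16Rik at a ratio of 0.471.

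The label embryonic stem cells was checked on marker lists. Of 26 pluripotency genes 22 were tested and 0 were past the limits, with a summed RPKM of 368 and 401 in WT and 287 and 374 in the libraries labelled EloA null. Zfp42, known as Rex1, had 98.0 and 121 RPKM against 70.1 and 105, Tbx3 61.0 and 50.6 against 50.1 and 47.2. Of 25 feeder fibroblast markers 7 were tested and 3 were lower, Acta2, Lox and Col1a1, at ratios of 0.602, 0.602 and 0.636. That share was 42.9%, against 4.91% of all genes tested and 3.33% of those with at least 50 reads. Col1a1 was above 0.5 RPKM in WT alone. The summed RPKM of the list was 16.0 and 16.7 in WT and 16.1 and 15.3 in the libraries labelled EloA null, so the sums of the genotypes overlapped. Of the 7 tested markers, however, 6 had a log2 difference below 0 and 1 above. The median of the 7 was −0.29, against −0.06 over all genes tested. Neural markers summed to 17.4 and 15.8 in WT and 19.8 and 21.4, while Hes5 and Neurog2 were listed at 0 in all 4 libraries. Endoderm markers summed to 9.26 and 8.11 in WT and 6.26 and 5.69, of which Lama1, lower with 5.93 and 5.53 against 3.82 and 3.44, held the most, and Foxa2, Sox17 and Afp were at 0. The part of such cells in the results was not tested, and in bulk samples fewer cells of a type and less RNA per cell cannot be told apart.

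Genes of the 2-cell-like state, which a small share of stem cells enters, were scarce. Of 20 listed 2 were tested, Usp17la and Usp17le, both lower on means of 12.2 and 29.2 reads; Usp17le had 0.525 and 0.523 RPKM in WT and 0.122 and 0.131 in the libraries labelled EloA null, so both genes were above 0.5 RPKM in WT alone. Over all genes tested 4.91% were lower, but a gene above the limit in WT alone had to differ to be kept. The summed RPKM of the list was 1.63 and 1.83 in WT and 0.412 and 0.471 in the libraries labelled EloA null. Usp17la and Usp17le, with WT means of 0.609 and 0.524 RPKM, make up much of that sum, so it is not separate support. Usp17l genes are near-identical copies, and Dux, Tcstv1, Tcstv3 and Zscan4b were listed at 0 throughout. Eed, a Polycomb subunit gene, and Dhx9, an RNA helicase gene, had ratios of 0.900 and 1.01, with 20.7 and 20.0 RPKM in WT against 16.9 and 19.7 for Eed, and 17.7 and 18.3 against 15.1 and 21.2 for Dhx9.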

How the data were processed

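The 4 Bru-seq libraries of the 5-min recovery (2 WT, 2 labelled EloA null) were compared, and 8 libraries of the steady state and the 10-min recovery served for comparison; the CUT&RUN and ChIP samples of the 28 in the series were not used. Groups follow the sample titles. One steady-state library titled EloA null carries a wild type genotype label and was kept with its title. Per the study's methods and the submitters' processing notes, the authors aligned reads to mm10 and dm3 with Bowtie2 2.3.4.3, counted them in RefSeq genes with featureCounts 1.6.1 and deposited RPKM values made with edgeR, without pooling replicates. Spike-in scaling and the use of strand in counting are not given in the sources used here.

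RPKM is not a count, so no count test was run. Library sizes and reads per gene were derived from the size of 1 read in low RPKM values, with gene models of GRCm38.p6; 96.9% to 97.1% of genes with introns then gave whole reads, within 0.05, with the summed intron length in each 5-min library, and simulated tables were used to test this step. Symbols were matched to RefSeq directly (24420) or by older symbols (410), and 26 date-like and 128 other symbols were not matched. The main test was limma 3.58.1 (R 4.3.3) with the intensity trend, fitted to log2(RPKM + 0.1), and Benjamini-Hochberg adjustment, so differences of low genes are understated. Genes with a mean RPKM above 0.5 in either genotype were kept. Values per library were compared by two-sided exact permutation tests.

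Named genes were Eloa; the 15 largest ratios each way among genes past 1.5-fold without overlap with a mean of at least 50 reads; up to 6 such members of each of 31 lists, or the 2 most abundant members of a list with none; the 5 smallest interaction p each way; and Eed and Dhx9. The comparison, lists and rules were chosen with earlier results of these data known. Alternatives were other pseudocounts, filters, scalings, a GC correction, a replicate block, other estimates of the spread and leaving out each library; 3 of them (genes above 0.5 RPKM in both genotypes, no chromosome 14, and at least 20 reads for the interaction) were chosen after seeing the data. The study's own fold changes were not used.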

Additional observations from a re-analysis of the deposited data

Results flagged for a closer look

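In 8 microRNA genes the genotype difference at 5 min differed from that in steady state by the limma interaction test over 8 libraries, with Benjamini-Hochberg adjustment over 8985 genes. All rest on single reads, and the size of each value is set by the pseudocount. Mir127 had 1 and 2 reads in WT and 0 and 0 in the libraries labelled EloA null at 5 min, against 5 and 8, and 9 and 9, in steady state, an interaction of −4.77 on the log2 scale (adjusted p = 0.0165). Mir147 had 1 and 1 reads in WT and 0 and 0 in the libraries labelled EloA null at 5 min, against 1 and 1, and 1 and 1, in steady state, an interaction of −3.64 on the log2 scale (adjusted p = 0.0321). Mir1907 had 3 and 3 reads in WT and 0 and 0 in the libraries labelled EloA null at 5 min, against 8 and 8, and 7 and 9, in steady state, an interaction of −4.96 on the log2 scale (adjusted p = 0.00184). Mir219a-2 had 1 and 1 reads in WT and 0 and 0 in the libraries labelled EloA null at 5 min, against 3 and 6, and 10 and 10, in steady state, an interaction of −4.56 on the log2 scale (adjusted p = 0.0259). Mir3101 had 0 and 0 reads in WT and 2 and 3 in the libraries labelled EloA null at 5 min, against 3 and 5, and 2 and 5, in steady state, an interaction of 4.60 on the log2 scale (adjusted p = 0.0496). Mir3569 had 1 and 1 reads in WT and 0 and 0 in the libraries labelled EloA null at 5 min, against 1 and 1, and 2 and 2, in steady state, an interaction of −4.96 on the log2 scale (adjusted p = 0.0042). Mir674 had 0 and 0 reads in WT and 1 and 1 in the libraries labelled EloA null at 5 min, against 5 and 6, and 2 and 4, in steady state, an interaction of 3.87 on the log2 scale (adjusted p = 0.0445). Mir6926 had 1 and 2 reads in WT and 0 and 0 in the libraries labelled EloA null at 5 min, against 2 and 1, and 4 and 5, in steady state, an interaction of −5.85 on the log2 scale (adjusted p = 0.0321). With a pseudocount of 1 the interaction passed in 2 genes, and among genes with at least 20 reads in 0. Groups of 2 libraries are too small for a check of single outlying libraries.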

How the results depend on the processing

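Counts of genes past 1.5-fold moved with the filter. Against 485 higher and 604 lower genes, and 392 and 441 without overlap, the counts were 2985 and 3790, and 1642 and 2104, with no filter; 309 and 333, and 259 and 253, above 1 RPKM; 199 and 239, and 149 and 143, at 2-fold; and 284 and 310, and 243 and 242, above 0.5 RPKM in both genotypes, an alternative chosen after seeing the data. With at least 20 reads they were 270 and 298, and 262 and 284. Leaving out 1 library gave 527 to 762 higher and 513 to 983 lower genes, and 499 to 679 and 486 to 973 without overlap; without WT replicate 1 the higher count without overlap was 679, and without WT replicate 2 the lower count was 973. Centring, the GC correction and leaving out chromosome 14 (274 and 438 without overlap) stayed within 1.5 times.

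limma called 0 genes in the design as reported, and 110 with at least 20 reads, 2 with a pseudocount of 0.5, 29 with a robust prior, 47 without the intensity trend and 532 with the spread of 12 libraries, whose other libraries are deeper. Without the filter, above 1 RPKM, centred, with quantile scaling, with the GC correction, with a pseudocount of 1 and above 0.5 RPKM in both genotypes it called 0, with 588 to 1860 genes at an unadjusted p under 0.05. Leaving out 1 library gave 0 to 60 calls: 39 without null replicate 1, 0 without null replicate 2, 47 without WT replicate 1 and 60 without WT replicate 2, with the lone library assumed to vary like the others. With 2 pairs the replicate numbers share only a number (the correlation of deviations was 0.119); a replicate block gave 128 calls, and 0 with the GC correction.

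The interaction passed in 8 genes, in 2 with a pseudocount of 1, in 3 with the replicate block, in 0 with at least 20 reads (chosen after seeing the data) and in 4 to 28 when 1 library was left out, with 28 without WT replicate 2 and 4 without WT replicate 1. Without the steady-state library labelled wild type it passed in 11. The median difference of chromosome 14 was 0.37 to 0.51 without 1 library. The span difference of −0.093 was −0.16 to −0.028 without 1 library and 0.078 against steady state, where it reversed.

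Of 819 values of named genes under these alternatives 22 reversed, in 11 genes that did not pass the test. Over the fits without 1 library the log2 difference ran from −0.13 to 0.17 for H3f3a, −0.52 to 0.57 for H2afx, −0.38 to 0.092 for Asns, −0.21 to 0.15 for Slc3a2, −0.30 to 0.24 for Polr2d, −0.21 to 0.029 for Polr2m, −1.43 to 0.38 for Rmrp, −0.39 to 0.15 for Rps20, −0.22 to 0.13 for Rpl31, −0.55 to 0.21 for Mir292b and −0.25 to 0.23 for Dhx9. Centred on the median it was 0.026 for Slc3a2, 0.025 for Polr2d, 0.0076 for Rpl31 and 0.048 for Dhx9, and with the GC correction 0.0011 for Dhx9. Of the 31 list medians 21 crossed 0 in some alternative, none of them past 0.25 in size as reported, so they carry no direction. The causes of these changes were not tested.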
